A study of Homo sapiens with 4 samples.

Results

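The MAPK feedback genes examined here are DUSP4, DUSP5, DUSP6, SPRY2, SPRY4, SPRED1, SPRED2, ETV4, ETV5 and PHLDA1. They were chosen by name, and all 10 were found among the 25268 gene symbols of the expression table, each in a single row. All 10 also passed the filter on low values, set at an average of 1 FPKM across the libraries, as did 11147 symbols in all. FPKM is the number of fragments scaled by transcript length and by the mapped total of the library, so levels of different genes can be compared on this scale. The cells were SK-MEL-28, an established human melanoma line. The study made stable lines with lentiviral pTRIPZ, selected with geneticin, and concerned the inhibition of the CLK splicing kinases in cells with high MYC. The vector line carried the empty vector and the MYC line carried MYC under doxycycline (Dox) control. Each line was sequenced without Dox and after 54 h with Dox, which gave 4 libraries, 1 per condition, and both lines were kept in G418 in all conditions. The sources used here do not say whether a line was a clone or a pool, or whether its libraries came from separate cultures. With 1 library per condition, differences between conditions could not be checked against replicates and are given without p-values.

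SK-MEL-28 is known for an activating BRAF mutation, which drives the kinase cascade from RAF through MEK to ERK without a signal from outside the cell. FPKM values do not show the mutation. Active ERK switches on genes whose products act back on the cascade. The dual-specificity phosphatases DUSP4, DUSP5 and DUSP6 remove the activating phosphates from ERK. Sprouty (SPRY) and SPRED proteins restrain signalling at the level of RAS and RAF, and SPRED1 brings the RAS brake neurofibromin to the membrane. ETV4 and ETV5 are ETS transcription factors of the PEA3 group, and PHLDA1 encodes a small protein with a pleckstrin homology-like domain. Because these genes are ERK targets, they are often read together as a measure of MAPK output in melanoma.

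Sequences from the RefSeq promoter table (GRCh38.p14) are shown for 4 of the members that fell after Dox in the MYC line. They give the DNA just before the starts of these genes. Each is the 250 bases upstream of the annotated start, on the gene's strand, 5′ to 3′. Windows of 6 of the 10 members were used, and those of DUSP4, DUSP5, ETV4 and ETV5 were not examined. Where a gene had several starts, the one farthest upstream was taken. DUSP6 lies at chr12:89352502-89352751, PHLDA1 at chr12:76031777-76032026, SPRY2 at chr13:80341127-80341376 and SPRY4 at chr5:142324248-142324497, all on the minus strand. Capitals mark the only matches to the searched motifs in these 4 windows, both to the ETS motif CCGGAA.
DUSP6: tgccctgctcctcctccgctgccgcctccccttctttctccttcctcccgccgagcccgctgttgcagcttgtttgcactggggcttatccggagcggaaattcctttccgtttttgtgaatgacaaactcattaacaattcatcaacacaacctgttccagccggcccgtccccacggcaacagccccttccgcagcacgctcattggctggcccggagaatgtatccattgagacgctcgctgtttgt
PHLDA1: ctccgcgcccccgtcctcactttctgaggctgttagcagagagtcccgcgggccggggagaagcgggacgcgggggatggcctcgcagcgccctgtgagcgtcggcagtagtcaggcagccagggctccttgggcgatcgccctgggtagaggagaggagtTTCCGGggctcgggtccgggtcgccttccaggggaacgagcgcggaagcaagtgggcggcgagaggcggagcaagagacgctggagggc
SPRY2: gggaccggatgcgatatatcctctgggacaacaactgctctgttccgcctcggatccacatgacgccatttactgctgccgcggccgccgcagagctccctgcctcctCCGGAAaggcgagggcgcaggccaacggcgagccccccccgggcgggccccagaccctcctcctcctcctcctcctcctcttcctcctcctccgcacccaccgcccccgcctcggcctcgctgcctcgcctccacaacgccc
SPRY4: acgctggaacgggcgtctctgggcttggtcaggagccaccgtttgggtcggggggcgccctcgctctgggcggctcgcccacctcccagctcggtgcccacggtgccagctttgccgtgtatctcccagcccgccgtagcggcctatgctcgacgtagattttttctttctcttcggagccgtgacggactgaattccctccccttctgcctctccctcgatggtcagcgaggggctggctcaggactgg
The motifs searched on both strands were the MYC E-box CACGTG, the ETS motif CCGGAA, the AP-1 site TGANTCA and the cyclic AMP response element TGACGTCA. The CIC octamers TGAATGAA and TGAATGGA and the serum response element were also searched. Only these spellings were used, so shorter or variant forms of the ETS and CIC sites were not looked for and may be present. The ETS motif CCGGAA began 89 bases before the start of PHLDA1, on the opposite strand (TTCCGG as printed), and 142 bases before that of SPRY2. None of the other spellings searched was found in these windows or in those of SPRED1 and SPRED2, which also lacked CCGGAA. Over the same window of all 35116 promoters in the table, the E-box was present in 6.34%, the ETS motif in 14.5% and the AP-1 site in 6.57%. The cyclic AMP response element was present in 1.65%, the CIC octamers in 1.40% and 0.832%, and the serum response element in 1.16%. A match describes the letters only.

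The library totals are known only approximately, from the step between low FPKM values, as 34900000 to 41900000 fragments per library. Counting errors follow from this, cover the sampling of fragments only, and leave out any difference between cultures. MYC itself had 58.3 FPKM in untreated vector cells, 54.8 with Dox, 76.5 in untreated MYC-line cells and 87.1 with Dox. Its log2 change with Dox in the MYC line was 0.19, below 1.5-fold, and the endogenous and introduced copies cannot be told apart in these values. By other measures, the study reported MYC induction by Dox in these cells. These were MYC mRNA by RT-PCR after 54 h and the activity of an E-box reporter. The 7 melanocyte markers (MITF, SOX10, PMEL, MLANA, TYR, TYRP1, DCT) were all expressed in every library. Their summed level was 7911 FPKM in untreated vector cells, 7872 in vector cells with Dox, 7771 in untreated MYC-line cells and 4414 in MYC-line cells with Dox. In the MYC line 4 of the 7 fell at least 1.5-fold under Dox, beside 8.85% of all genes past the filter. All 7 were lower there, PMEL by -0.86 on the log2 scale. Vector cells had none of the 7 past 1.5-fold with Dox, but 5 were lower, TYRP1 (-0.35) and DCT (-0.29) among them, and 2 were higher. Between the lines with Dox, 2 of the 7 were at least 1.5-fold lower in the MYC line, beside 8.62% of all genes. In that comparison 6 were lower and 1, DCT, was higher (0.07). Markers of other cell types were at or near 0. KRT5 was at 0 in every library, PTPRC and CD3E were at 0 in 3 of the 4, and the summed level of the 3 endothelial markers was at most 0.114 FPKM and that of the 3 fibroblast markers at most 0.166 FPKM. Of the 4 epithelial markers, EPCAM went from 0.726 to 2.71 FPKM with Dox in the MYC line, and their sum lay between 0.922 and 2.96 FPKM. The part of the lower melanocyte genes and of EPCAM in the results below was not tested.

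Under Dox, 5 of the 10 feedback genes fell in the MYC line by 1.5-fold or more and none rose. These were DUSP4, DUSP6, SPRY2, SPRY4 and PHLDA1. In bulk RNA, fewer cells that express a gene and less RNA per cell cannot be told apart. Changes are differences of log2(FPKM + 0.1). Over all genes past the filter, 8.85% fell and 5.90% rose at this threshold. The median log2 change of the 10 genes was -0.58, beside -0.03 over all genes, and 9 of the 10 were lower, although the signs of DUSP5 and ETV4, both near 0, depended on the scaling. The count depended on the scale, since 3 genes (DUSP6, SPRY4 and PHLDA1) passed after scaling by the median ratio and none passed at 2-fold. ETV5 stood just outside the threshold at 1.49-fold. SPRED1, SPRED2, DUSP5 and ETV4 lay nearer to no change, from -0.19 to 0.02 on the log2 scale. In the vector line, Dox moved none of the 10 genes past 1.5-fold, beside 0.709% of all genes that rose and 0.440% that fell there. Their median log2 change in that line was 0.00, beside 0.01 over all genes, and 5 were higher and 5 lower.

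**Figure D1:**
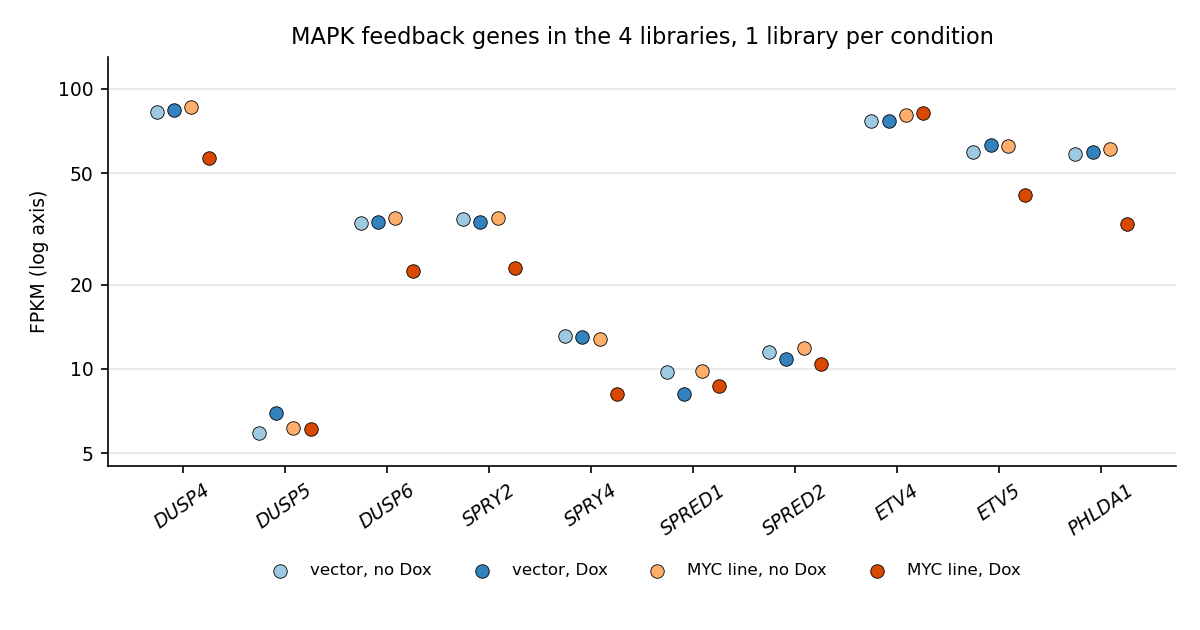
FPKM (log axis) of the 10 feedback genes, with 1 point per library coloured by line and Dox. The MYC line with Dox lies below the other libraries for DUSP4, DUSP6, SPRY2, SPRY4, ETV5 and PHLDA1, and among or close to them for DUSP5, SPRED1, SPRED2 and ETV4.

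DUSP4 and DUSP6 fell together among the phosphatases, and DUSP5 did not. DUSP4 encodes a nuclear phosphatase of the MAP kinases, and the gene lies on chromosome 8 of GRCh37 from 29190581 to 29208201. It had 82.8 FPKM in untreated vector cells, 83.8 with Dox, 86.3 in untreated MYC-line cells and 56.5 with Dox. The other 3 libraries lay close together, and the library with Dox in the MYC line was 34.5% below its untreated partner. The log2 change was -0.61 (counting error 0.0165), with a 95% counting interval of -0.64 to -0.58.

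DUSP6 encodes the main cytoplasmic phosphatase of ERK and lies on chromosome 12 from 89741012 to 89746278. It had 33.2 FPKM in untreated vector cells, 33.6 with Dox, 34.5 in untreated MYC-line cells and 22.3 with Dox. The same single library was low. The log2 change was -0.62 (counting error 0.0325), and it differed from that of DUSP4 by 0.02, with a counting interval of -0.06 to 0.09. The fold changes of the pair thus differed by less than their counting error, although DUSP4 was the more highly expressed gene in every library.

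DUSP5, which encodes a nuclear phosphatase of ERK, lies on chromosome 10 from 112257665 to 112271291 and was the least expressed of the 10 genes in every library. It had 5.89 FPKM in untreated vector cells, 6.98 with Dox, 6.15 in untreated MYC-line cells and 6.09 with Dox. Here the highest library was the vector line with Dox, where the log2 change was 0.24 with a counting interval of 0.08 to 0.41. In the MYC line the log2 change was -0.02 (counting error 0.0824). In the MYC line the change of DUSP4 minus that of DUSP5 was -0.59 (counting interval -0.76 to -0.43), and the change of DUSP6 minus that of DUSP5 was -0.61 (-0.78 to -0.44).

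Some phosphatases outside the 10 genes went the other way. Of 7 further MAP kinase phosphatases, 5 averaged 1 FPKM or more over the 3 libraries other than the MYC line with Dox. Of these 5, 2 rose by 1.5-fold or more in the MYC line and none fell, beside 5.90% and 8.85% of all genes. The shares over all genes rest on the filter over all 4 libraries, not on that used for the 5. The median log2 change of the 5 was 0.16. DUSP7 rose from 4.14 to 7.24 FPKM (0.79, counting error 0.0759) and DUSP9 from 4.30 to 7.39 FPKM (0.77, counting error 0.0878). Both encode cytoplasmic phosphatases that act on ERK. In the vector line DUSP7 had 4.32 FPKM without Dox and 3.82 with Dox, and DUSP9 had 4.85 and 4.62. The library with Dox in the MYC line was thus the highest of the 4 for both genes, and the lowest for DUSP4 and DUSP6. DUSP2, a nuclear phosphatase, passed the filter only through the library where it was high, so it is left out of these counts. It had 0.641 and 0.751 FPKM without and with Dox in vector cells, and 0.655 and 3.68 FPKM in MYC-line cells, a log2 difference of 2.33. DUSP10, a phosphatase known for acting on p38 and JNK and the most expressed of the 7, had 44.1, 46.7, 40.4 and 37.3 FPKM in the order vector without Dox, vector with Dox, MYC line without Dox and MYC line with Dox, a log2 change of -0.12. DUSP1 and DUSP16 had log2 changes of 0.16 and -0.02, and DUSP8 was below the filter at no more than 0.0816 FPKM. On the FPKM scale the phosphatases that rose stayed below those that fell: DUSP4 was the highest of the family in every library, and DUSP6 at 22.3 FPKM remained above DUSP9 at 7.39 FPKM in the library where they were closest.

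**Figure D2:**
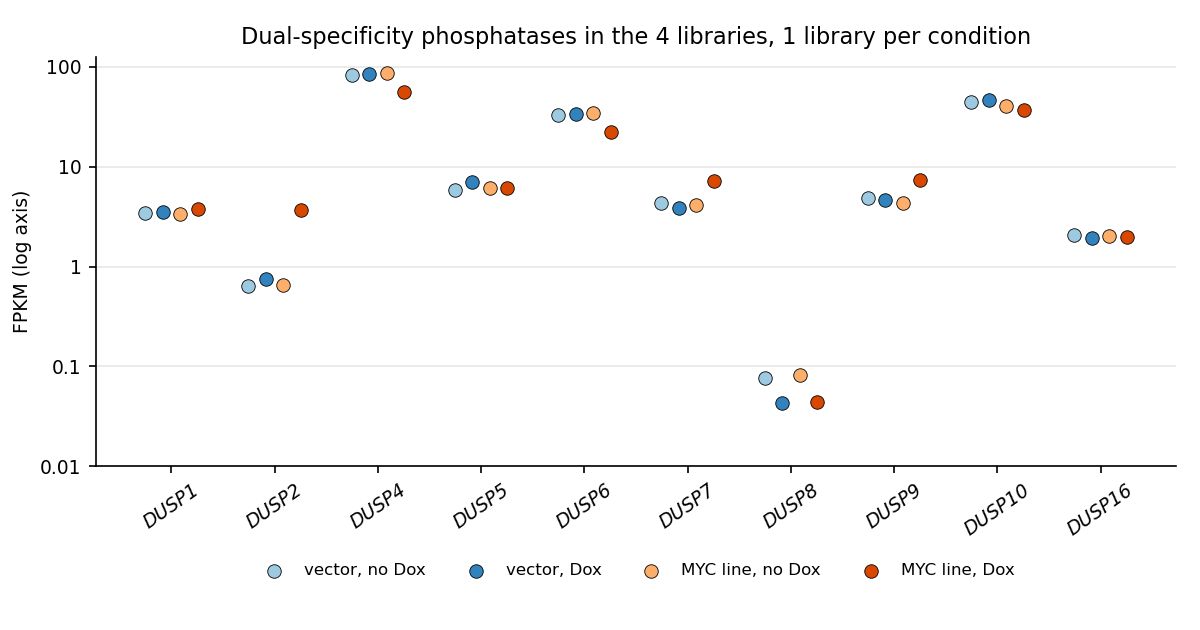
FPKM (log axis) of the 10 MAP kinase phosphatases measured, DUSP4, DUSP5 and DUSP6 among them, with 1 point per library. The MYC line with Dox is the lowest point for DUSP4, DUSP6 and DUSP10 and the highest for DUSP1, DUSP2, DUSP7 and DUSP9.

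Both Sprouty genes among the 10 fell, and neither SPRED gene passed the threshold. SPRY2, on chromosome 13 from 80910111 to 80915261, had 34.3 FPKM in untreated vector cells, 33.4 with Dox, 34.5 in untreated MYC-line cells and 22.9 with Dox. The log2 change was -0.59 (counting error 0.0406), only just past 1.5-fold, and its counting interval of -0.67 to -0.51 held the threshold. SPRY4, on chromosome 5 from 141689992 to 141706020, had 13.1 FPKM in vector cells both without and with Dox, 12.8 in untreated MYC-line cells and 8.16 with Dox. Its log2 change was -0.65 (counting error 0.0460). Except for the low library, the levels of SPRY4 spanned only 2.24% of the lowest, the narrowest span of the 10 genes. The changes of SPRY2 and SPRY4 differed by 0.06, with a counting interval of -0.06 to 0.18.

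SPRED1, on chromosome 15 from 38545037 to 38649450, had 9.73 FPKM in untreated vector cells, 8.14 with Dox, 9.85 in untreated MYC-line cells and 8.68 with Dox. It was lower with Dox in both lines, by log2 changes of -0.25 in vector cells and -0.18 in MYC-line cells, and the difference of 0.07 between them had a counting interval of -0.04 to 0.19. SPRED2, on chromosome 2 from 65537985 to 65659771, had 11.5 FPKM in untreated vector cells, 10.8 with Dox, 11.8 in untreated MYC-line cells and 10.4 with Dox. Its log2 changes were -0.08 in vector cells and -0.19 in MYC-line cells. In the MYC line the change of SPRY2 minus that of SPRED2 was -0.40 (counting interval -0.52 to -0.28), and for SPRY4 it was -0.46 (-0.59 to -0.33). Against SPRED1 the differences were -0.40 for SPRY2 and -0.47 for SPRY4. Of the remaining family members, SPRY1 alone passed the filter, with 9.79, 12.6, 10.3 and 8.54 FPKM in the order given for SPRED2, and log2 changes of 0.37 in vector cells and -0.27 in MYC-line cells. SPRY3 and SPRED3 were below 0.1 FPKM in every library.

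The PEA3 factors parted from each other. ETV5, on chromosome 3 from 185764103 to 185828107, had 59.5 FPKM in untreated vector cells, 62.9 with Dox, 62.6 in untreated MYC-line cells and 41.9 with Dox. The log2 change in the MYC line was -0.58 (counting error 0.0225), with a counting interval of -0.62 to -0.53 that held the 1.5-fold threshold. ETV4, on chromosome 17 from 41605212 to 41656988, had 76.9, 76.7, 80.6 and 81.9 FPKM in the same libraries, the last of these being the highest. Its log2 change in the MYC line was 0.02 (counting error 0.0233). The change of ETV5 minus that of ETV4 was -0.60, with a counting interval of -0.67 to -0.54. In the vector line the same difference was 0.09, with an interval of 0.02 to 0.15. ETV1, the remaining PEA3 factor, had 5.71 FPKM without and 4.14 with Dox in the MYC line, a log2 change of -0.45, and -0.03 in the vector line. ETV4 shares its position with DHX8 on the opposite strand, at 6.20 to 6.84 FPKM, and ETV5 with DGKG on its own strand, at 1.10 to 1.14 FPKM. ETV5, SPRY4 and PHLDA1 also have annotated antisense genes, ETV5-AS1, SPRY4-AS1 and PHLDA1-AS1. Whether the FPKM values used the strand of the reads is not given in the sources used here, so reads of such pairs may not be told apart.

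PHLDA1 fell most of the 10 genes. It lies on chromosome 12 from 76419227 to 76425556 and had 58.5 FPKM in untreated vector cells, 59.4 with Dox, 61.1 in untreated MYC-line cells and 32.8 with Dox. The library with Dox in the MYC line held 56.1% of the lowest of the other libraries. The log2 change was -0.90 (counting error 0.0203), a 1.86-fold fall, and its counting interval of -0.94 to -0.86 was the only one of the 10 that lay wholly past 1.5-fold. Of the 11147 genes, 355 were as low or lower in this change, PHLDA1 included, against 803 for SPRY4, 862 for DUSP6, 909 for DUSP4 and 985 for SPRY2. Its relatives differed: PHLDA2 had 81.0 FPKM without and 86.3 with Dox in the MYC line (log2 change 0.09), and PHLDA3 had 172 and 154 FPKM (-0.16).

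**Figure D3:**
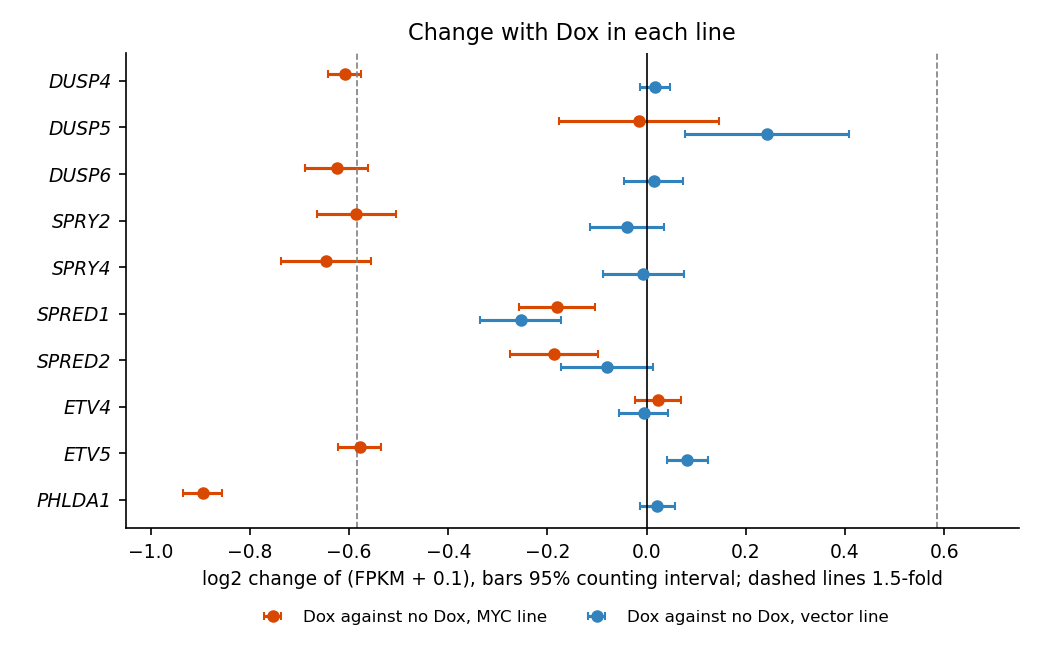
Log2 change of FPKM + 0.1 with Dox in the MYC line and in the vector line for each feedback gene, with 95% counting intervals as bars and the 1.5-fold thresholds as dashed lines. PHLDA1 at -0.90 lies farthest to the left, DUSP4, DUSP6, SPRY2, SPRY4 and ETV5 lie close to the lower threshold, and all vector line values lie between -0.25 and 0.24.

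The lines were then compared with each other. Between the lines without Dox, none of the 10 genes passed 1.5-fold, beside 0.592% of all genes that were higher and 0.287% that were lower in the MYC line, and the log2 differences lay between -0.03 (SPRY4) and 0.07 (ETV5). Between the lines with Dox, 4 of the 10 were at least 1.5-fold lower in the MYC line and none was higher, beside 8.62% and 6.50% of all genes. These were PHLDA1 (-0.85), SPRY4 (-0.67), ETV5 (-0.59) and DUSP6 (-0.59). DUSP4 and SPRY2, at -0.57 and -0.54, did not pass in this comparison. ETV5 and DUSP6 lay on the threshold, and only PHLDA1 and SPRY4 passed with a pseudocount of 1 or after scaling by the median ratio, which left 2 genes. It uses the same library of the MYC line with Dox as the comparison within that line, so the counts are not independent. That library was the lowest of the 4 for 7 of the 10 genes, the highest for ETV4 and between the others for DUSP5 and SPRED1. Over all genes past the filter it was the lowest for 42.9%.

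Taking the change in the vector line away from that in the MYC line gave -0.92 for PHLDA1, -0.66 for ETV5, -0.64 for SPRY4 and for DUSP6, -0.63 for DUSP4 and -0.55 for SPRY2. It gave -0.26 for DUSP5, where the vector line change of 0.24 supplied most of the difference, -0.11 for SPRED2, 0.03 for ETV4 and 0.07 for SPRED1. The counting intervals of SPRED1, SPRED2 and ETV4 held 0.

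**Figure D4:**
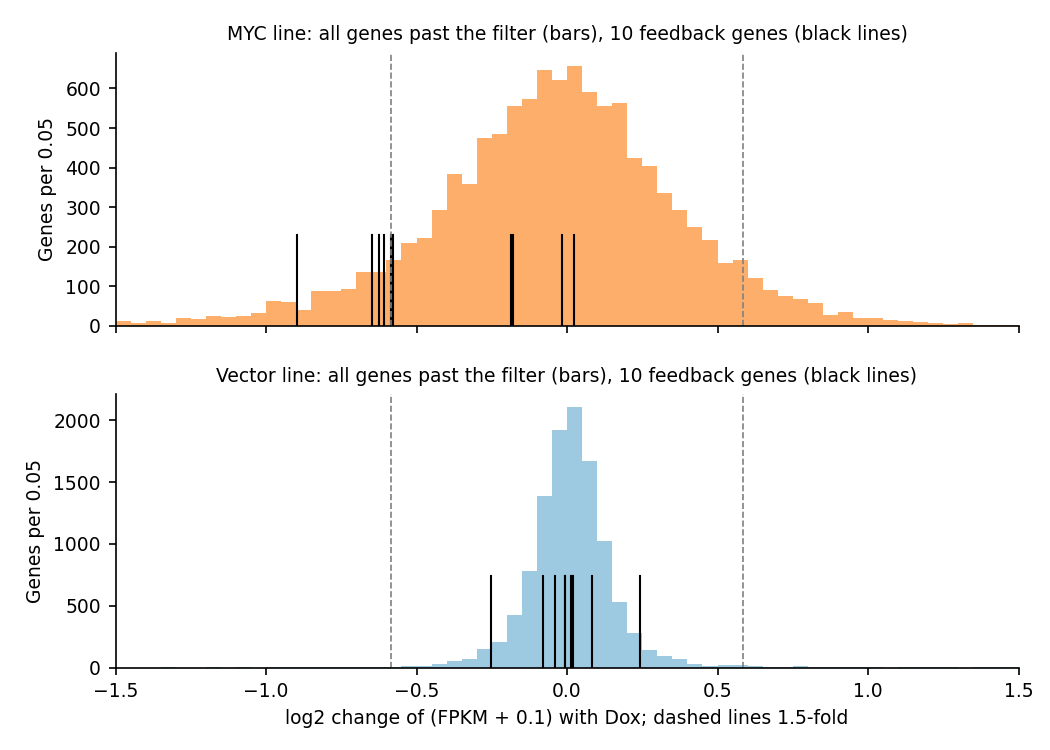
Number of genes per 0.05 of log2 change with Dox (bars) in the MYC line (top) and the vector line (bottom), with the 10 feedback genes as black lines and 1.5-fold as dashed lines. In the MYC line the genes stand from -0.90 to 0.02, with 6 of them at or near the lower dashed line or beyond it, and in the vector line they stand within -0.25 to 0.24.

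The order of the levels changed with these differences. In the vector line without Dox the order from high to low was DUSP4, ETV4, ETV5, PHLDA1, SPRY2, DUSP6, SPRY4, SPRED2, SPRED1 and DUSP5. SPRY2 and DUSP6, at 34.3 and 33.2 FPKM, were neighbours that exchanged places in the vector line with Dox, at 33.4 and 33.6 FPKM, and ETV5 and PHLDA1 lay within 5 FPKM of each other in all libraries but the MYC line with Dox. In the MYC line with Dox, ETV4 was first at 81.9 FPKM and DUSP4 second at 56.5 FPKM. SPRY4, at 8.16 FPKM, there stood below SPRED2 and SPRED1, at 10.4 and 8.68 FPKM, which it exceeded in the other libraries.

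Genes outside the list with the nearest pattern over the 4 libraries were looked for among 7464 genes averaging 5 FPKM or more, by the distance between log2 values centred on each gene's mean. Nearest to DUSP4 were SCRN1 (distance 0.0138) and ALKBH6 (0.0260), and nearest to DUSP6 were SCRN1 (0.0188) and PIK3CD (0.0264). MTMR9LP (0.0225) and TUBB2A (0.0231) were nearest to SPRY4, and MIA (0.0227) and MDP1 (0.0249) to PHLDA1. IFNGR2 (0.0113) was the second nearest to SPRY2. SCRN1, the nearest gene to both phosphatases, had 18.8, 18.9, 19.7 and 12.8 FPKM in the vector line without and with Dox and the MYC line without and with Dox. Each distance rests on 4 values per gene.

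A further list held 12 genes that ERK is known to induce. Of these, 11 passed the filter, and of the 11, 3 fell by 1.5-fold or more in the MYC line and none rose. EPHA2, the gene below the filter, is outside these counts and went the other way. It reached 1.21 FPKM with Dox in the MYC line, a rise past 1.5-fold (0.72 on the log2 scale, counting error 0.171). The median log2 change of the 11 was -0.48, beside -0.03 over all genes, and 10 of the 11 were lower. EPHA4, an ephrin receptor, fell from 2.48 to 1.28 FPKM (-0.90, counting error 0.0984), and LIF, a cytokine, fell from 8.99 to 4.85 FPKM (-0.88, counting error 0.0653). IER3, an immediate-early gene, fell from 324 to 216 FPKM (-0.59, counting error 0.0180), and its values are sums over 6 rows of the table. TNFRSF12A, a receptor of the TNF family, had 107 FPKM without and 71.6 with Dox (-0.58), and CCND1, which encodes cyclin D1, had 130 and 92.1 FPKM (-0.49), neither past 1.5-fold.

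In the vector line 1 of the 11 genes rose past the threshold and none fell, beside 0.709% and 0.440% of all genes. EGR1, an immediate-early transcription factor, rose from 13.4 to 22.6 FPKM with Dox there (0.75, counting error 0.0460) and had 14.2 and 13.3 FPKM in the MYC line (-0.09). TNFRSF12A and LIF were also higher with Dox in the vector line, at log2 changes of 0.53 and 0.44, below 1.5-fold. The differences between the lines with Dox, which include these vector line values, were -1.18 for TNFRSF12A, -1.16 for LIF and -0.76 for EGR1. With EPHA4 (-0.82) and IER3 (-0.60), 5 of the 11 were at least 1.5-fold lower, beside 8.62% of all genes. MYC, itself on this list, was the 1 gene of the 11 at least 1.5-fold higher (0.67), beside 6.50% of all genes.

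Genes of the cascade itself were mostly near no change. Of 18 genes from the adaptors to the kinases, 16 passed the filter. Their log2 changes in the MYC line had a median of -0.05, beside -0.03 over all genes. SOS2, a RAS exchange factor, fell from 3.51 to 2.08 FPKM (-0.73, counting error 0.0849). It was the only one of the 16 past 1.5-fold, beside 8.85% of all genes that fell and 5.90% that rose. Among the most expressed were MAP2K2, a MEK kinase, with 172 FPKM without and 186 with Dox (0.11), and HRAS with 96.4 and 92.8 FPKM (-0.05). BRAF was measured at 0.502 and 0.693 FPKM in vector cells without and with Dox and at 0.736 and 0.678 FPKM in MYC-line cells, below the filter, while ARAF had 18.0 to 19.3 FPKM.

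Genes for other brakes on RAS and for repressors of feedback targets gave no call. Of 9 brakes and adaptors, 8 passed the filter, and their median log2 change in the MYC line was -0.06. None of the 8 rose or fell there by 1.5-fold or more, beside 5.90% and 8.85% of all genes. PEBP1, which encodes a protein that binds RAF, had 318 FPKM without and 331 with Dox (0.06), ERRFI1, which encodes an inhibitor of the EGF receptor, had 6.84 and 8.01 FPKM (0.22), and RASA3, a RAS GTPase-activating protein, had 5.73 and 5.31 FPKM (-0.11). CIC is a repressor of PEA3 genes that ERK signalling relieves, and ATXN1 and ATXN1L encode its partners. Their log2 changes with Dox in the MYC line were -0.38 for CIC (7.86 and 6.01 FPKM), -0.20 for ATXN1 (1.18 and 1.01 FPKM) and -0.02 for ATXN1L (1.70 and 1.68 FPKM), none past 1.5-fold.

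**Figure D5:**
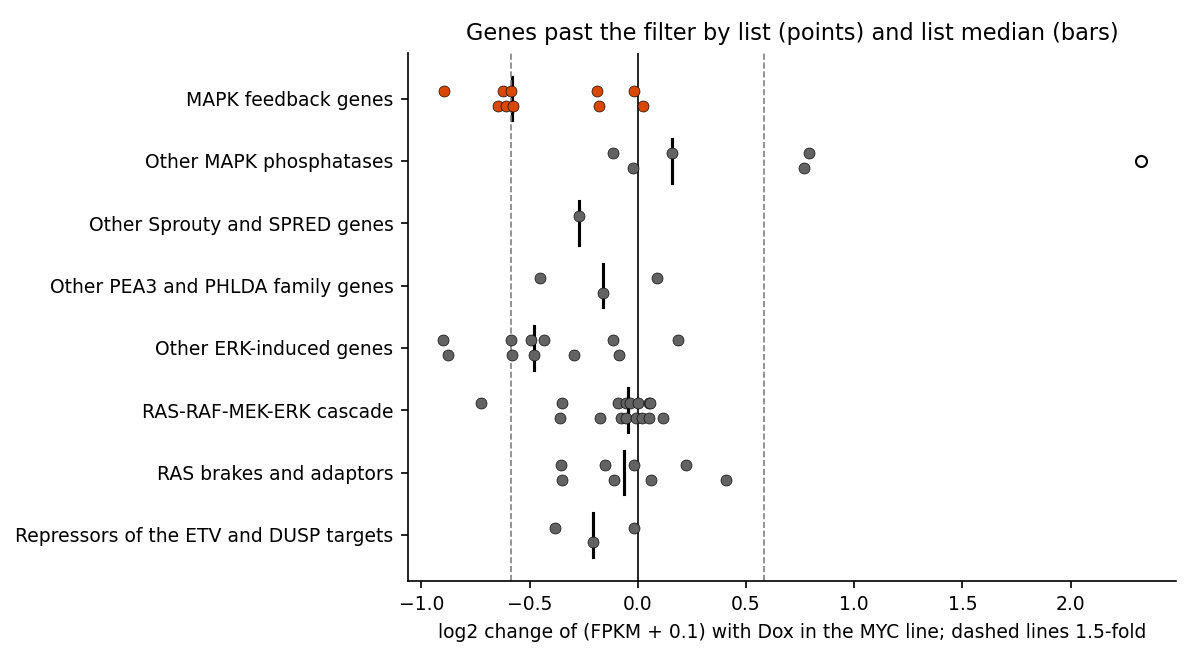
Log2 change of FPKM + 0.1 with Dox in the MYC line for the feedback genes (orange) and 7 related gene lists (grey), with 1 point per gene past the filter, DUSP2 (open) left out of the medians, the list median as a bar and 1.5-fold as dashed lines. The median is -0.58 for the feedback genes, -0.48 for further ERK-induced genes, -0.05 for the cascade and 0.16 for the other phosphatases.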

How the data were processed

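RNA-Seq of SK-MEL-28 cells was measured in 4 libraries, 1 per condition. The deposited values were FPKM, made by the authors for each gene symbol. The submitters' processing notes name TopHat2 2.0.14, Cufflinks, hg19 and GRCh37 without their roles, and the annotation and strand setting are not given in the sources used here. From 27032 rows, the 1 that names no gene was dropped, and rows of the 609 symbols with several rows were summed.

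Changes are differences of log2(FPKM + 0.1), which understates changes of low genes. Genes averaging 1 FPKM or more were used, and a gene was called at 1.5-fold or more. FPKM values are not counts and conditions have 1 library, so no test was made. Depth was estimated from 958 of 1962 genes below 0.2 FPKM whose values were whole multiples (to 1.2%, multiples up to 12) of a step, and set by 89 genes with 1 annotated transcript of at least 1500 bases. For the vector line without Dox their quartiles were 32800000 and 40700000 fragments. Counting errors assume Poisson sampling, and intervals are 1.96 errors wide on each side. Gene positions came from GENCODE on GRCh37. The scripts were tested on simulated data.

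All 10 feedback genes were named. From each further list, the genes past 1.5-fold (at most 3 per comparison) and the 3 most expressed were named. Some genes under these rules are not reported here. Other genes of the lists that are named were chosen after their values were seen. The feedback genes and the lists were chosen with earlier results of these data known. The alternatives were other pseudocounts, filters, scalings and thresholds, the vector line with Dox as reference, leaving out symbols with several rows and, added after seeing the data, a filter on the 3 libraries other than the MYC line with Dox. Calculations ran in Python 3.11.15 (numpy 2.4.6, pandas 2.3.3), and plots were drawn with matplotlib 3.10.9.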

Additional observations from a re-analysis of the deposited data

Results flagged for a closer look

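Several genes had log2 changes of opposite sign with Dox in the 2 lines. With 1 library per condition each direction rests on a single pair of libraries, and the difference was not tested. Among the feedback genes, the change in the MYC line minus that in the vector line was -0.63 for DUSP4, -0.26 for DUSP5, -0.64 for DUSP6, 0.029 for ETV4, -0.66 for ETV5 and -0.92 for PHLDA1 on the log2 scale. For DUSP4, DUSP6, ETV4 and PHLDA1 the change in the vector line was within 0.03 of 0, and under other scalings that of DUSP4 and DUSP6 changed sign, as did the changes of DUSP5 and ETV4 in the MYC line.

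Among related genes the difference was 0.96 for DUSP7, 0.84 for DUSP9, -0.20 for DUSP10, -0.64 for SPRY1 and -0.26 for PHLDA3. Among ERK-induced genes it was -0.53 for CCND1, -0.84 for EGR1, -0.61 for IER3, -1.32 for LIF and -1.11 for TNFRSF12A. It was -0.15 for HRAS, 0.067 for PEBP1, -0.58 for ATXN1 and -0.24 for ATXN1L. For DUSP5, SPRY1, EGR1, HRAS, ATXN1 and ATXN1L the change was larger in size in the vector line, and for LIF and TNFRSF12A the vector line was higher by 0.44 and 0.53 without passing 1.5-fold.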

How the results depend on the processing

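No paired analysis was possible because the conditions hold 1 library each. None of the feedback genes' changes in the MYC line that passed 1.5-fold turned direction under any alternative tried. The number that passed depended on the setting, since DUSP4, SPRY2 and ETV5 lie within 0.03 of the threshold. It was 5 as reported, 4 with a pseudocount of 1, 6 after scaling to the same sum or upper quartile (ETV5 added), 3 after scaling by the median ratio (DUSP6, SPRY4, PHLDA1) and 0 at 2-fold. Between the lines with Dox it was 4 as reported, 2 with a pseudocount of 1, 2 after median ratio scaling and 0 at 2-fold. No scaling moved the median of all genes by more than 0.1. The median of the further phosphatases was 0.46 with DUSP2 and 0.16 with the filter set on the other 3 libraries, which was chosen after seeing the data and changed no other list.

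Counts over all genes that rose and fell moved more. With a pseudocount of 1 they were 43 and 22 with Dox in the vector line, and 34 and 21 between the lines without Dox. Without the filter they were 1138 and 1748 in the MYC line, 529 and 387 in the vector line, 501 and 347 between the lines without Dox, and 1295 and 1761 with Dox. At a mean of at least 5 FPKM they were 436 and 549, 25 and 8, 16 and 10, and 438 and 570 in the same order. At 2-fold they were 117 and 228, 28 and 15, 24 and 18, and 132 and 231. Depth limits DUSP5, with 567 to 638 approximate fragments, more than DUSP4, with 12278 to 20053.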
